A study of Homo sapiens with 4 samples.

Results

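The distal long arm of human chromosome 11 was examined as a run of neighbouring genes in BT549 cells, an established cell line of triple-negative breast cancer (TNBC). The genes taken were the protein-coding rows of the deposited count table that start beyond position 100000000 of chromosome 11 (build hg38) and hold at least 40 counts summed over the 4 libraries, with 9 names of the segment left out by the same rule, 3 of them with 40 counts or more. This gave 137 of the 211 protein-coding rows of the segment and of the 31681 rows of the table, since 65 further rows were below 40 counts. The 137 genes start between positions 100687653 and 134331874, and all 137 passed the filter on low counts. The segment was chosen because its genes were higher together in the comparison of NRP2-high with NRP2-low cells, so the fold changes of that comparison are given as a description, without a test of the segment.

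BT549 cells were sorted by flow cytometry by their surface neuropilin-2 (NRP2), which binds VEGF and semaphorin ligands, into NRP2-high and NRP2-low populations, and RNA was sequenced from 2 libraries of each. No genotype change and no treatment is given for either population, and the gates of the sort are not given in the sources used here. Whether both libraries of 1 population were grown or sorted separately is not given, and the spread between them may be technical. The study asked which transcripts differ between cells with much and with little NRP2 on their surface.

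Total counts per library ran from 18165923 to 20585102, at which 3 counts correspond to 0.151 to 0.163 CPM (counts per 1e6 of the effective library size), the limit that a count of 0 allows. *NRP2* itself had 2588 and 2839 counts in NRP2-high cells (1 value per library, as throughout) against 195 and 166 in NRP2-low cells. Of the markers of the line, *VIM* of mesenchymal cells held at least 23658 counts in each library. *CDH2*, also a mesenchymal marker, was lower in the NRP2-high libraries (1013 and 1117 counts against 1663 and 1621). The epithelial genes *CDH1* and *EPCAM* held at most 5 counts, and *ERBB2* 888 to 1058. *ESR1*, *PGR* and *CD3E* had no row under these names in the count table, so they could not be checked. *KRT8* (7 and 6 counts against 50 and 43) and *KRT18* (8 and 5 against 73 and 69) were lower in the NRP2-high libraries, the blood markers *PTPRC* and *CD14* held at most 12 counts, and the endothelial markers *PECAM1* and *VWF* at most 14. Transcripts of the mitochondrial genome took 6.92% and 9.16% of the counts in the NRP2-high libraries and 5.57% and 5.85% in the NRP2-low libraries, and without these genes the median of the members given below was 0.49 in place of 0.50.

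The distal long arm of chromosome 11 holds genes of several unrelated pathways side by side. *ATM* and *CHEK1* encode protein kinases that halt the cell cycle after DNA damage, *YAP1* encodes the transcriptional coactivator that the Hippo pathway restrains, and its neighbours *BIRC2* and *BIRC3* encode ubiquitin ligases that block cell death. A series of immunoglobulin superfamily genes on the same arm encodes proteins that join cells to one another, and in breast cancers this arm is a known site of chromosomal loss.

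Most members were higher in NRP2-high cells. Their median log2 fold change (NRP2-high minus NRP2-low, edgeR) was 0.50, a 1.41-fold difference, with quartiles of 0.09 and 0.73, whereas the median of all 15083 tested genes was -0.01 with quartiles of -0.39 and 0.39. Of the 137 members, 111 had a log2 fold change above 0 and 26 below. An adjusted p under 0.05 was reached by 95 members with higher counts in NRP2-high cells (69.3%) and by 14 with lower counts (10.2%, or 9 members without NRP2-low 1), while 28 did not pass (20.4%). Over all tested genes 28.9% were called higher and 27.7% lower, and because the segment was chosen on this comparison nothing is read from the difference. Both NRP2-high libraries lay above both NRP2-low libraries for 103 members (75.2%, against 39.0% of all tested genes) and below them for 19 (13.9%, against 39.2%), and the groups overlapped for 15. In these bulk libraries, fewer cells that express a gene and less of its RNA per cell cannot be told apart.

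Together the members took 1.56% and 1.55% of all counts in the NRP2-high libraries and 1.28% and 1.28% in the NRP2-low libraries. The shift was of nearly the same size in each pairing of libraries. The 4 pairings reuse the same 4 libraries, on which the segment was chosen, so their likeness is a description and no independent support. The median difference in log2 CPM (prior count 2) of an NRP2-high minus an NRP2-low library ran from 0.487 to 0.495 over the 4 pairings, while it was -0.02 for NRP2-high 1 minus NRP2-high 2 and 0.01 for NRP2-low 1 minus NRP2-low 2. The gene-by-gene pattern inside the segment was also alike in pairs that share no library. Across the 137 members, the difference of NRP2-high 1 and NRP2-low 1 had a Pearson correlation of 0.959 and a Spearman correlation of 0.907 with that of NRP2-high 2 and NRP2-low 2, and across the 116 members that stayed within 2-fold of the block median these were 0.831 and 0.850. These points are genes, not replicates, and in each pair they share their libraries.

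**Figure D1:**
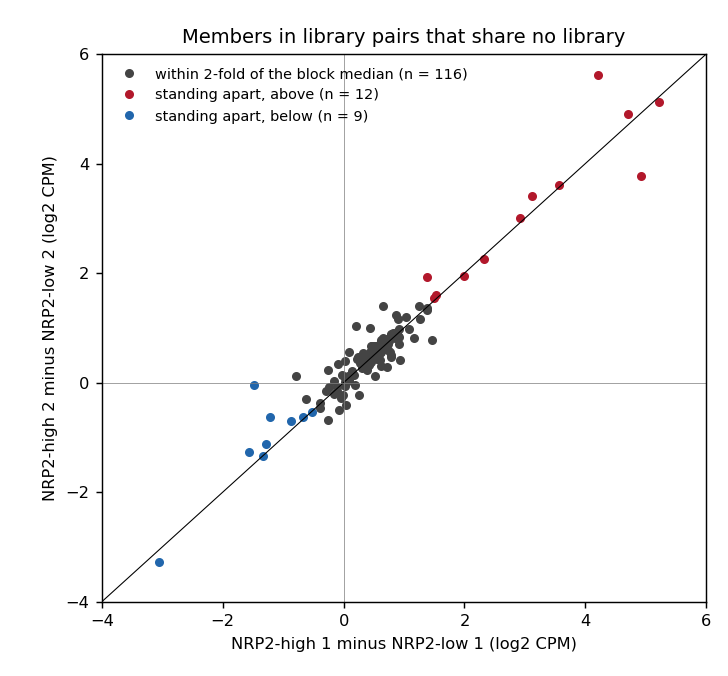
Difference in log2 CPM of NRP2-high 1 minus NRP2-low 1 (horizontal) against NRP2-high 2 minus NRP2-low 2 (vertical) for the 137 members, 1 point a gene, with the line of equality. The points follow the line, with a Pearson correlation of 0.959, and most lie above 0 on both axes.

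In the plot of library pairs most members lie close to the line, with exceptions such as *PIH1D2*, which was at -1.48 in one pair and -0.04 in the other. The spread of the members around their median was larger than their errors. Their median standard error was 0.08 on the log2 scale, 64 members lay within 0.25 of the block median and 88 within 0.5, and 89 were more than 2 standard errors away from it. Only 24 members lay within 0.25 of a log2 fold change of 0. By these errors the members did not share 1 constant shift. The errors rest on 2 libraries a group that may be technical repeats, and may leave out variation between cultures or sorts.

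Along the segment, the shift was present in every 5 Mb bin. From its start to the end of the chromosome, the medians of the 7 bins were 0.66, 0.64, 0.50, 0.40, 0.57, 0.48 and 0.50, over 10 to 37 members each. A running median over 15 neighbouring members was lowest, at 0.09, around *SLC37A4*, the glucose-6-phosphate transporter gene, and highest, at 0.84, around *NPAT*, a coactivator gene of histone transcription. Both of these centres were picked out after their values were seen. The low stretch around *SLC37A4* held a run of neighbours with little difference, among them *RPS25* (0.05), a ribosomal protein gene, *TRAPPC4* (-0.12) and *VPS11* (-0.10), genes of vesicle trafficking, and *HINFP* (0.07), a transcription factor gene.

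The start of the segment was not the start of the shift. In the 5 Mb bins between positions 70000000 and 100000000 of chromosome 11, the medians of tested protein-coding genes were 0.24, 0.40, 0.79, 0.25, 0.60 and 0.40, the value of 0.79 over 6 genes. The 111 tested protein-coding genes of this stretch had a median of 0.38, the 321 of the whole long arm below the segment 0.16, and the 208 of the short arm -0.34. The first 87 genes of the short arm, up to position 10000000, had a median of -0.72. Against all 529 tested protein-coding genes of the rest of chromosome 11, whose median was -0.01, the members were 0.51 higher at the median.

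**Figure D2:**
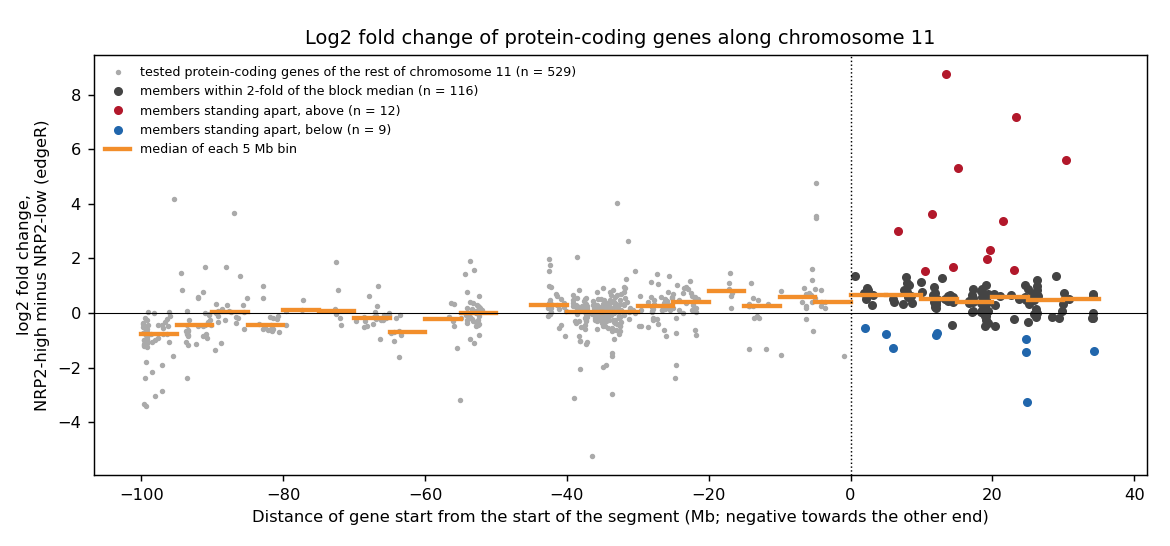
Log2 fold change (NRP2-high minus NRP2-low, edgeR) of tested protein-coding genes along chromosome 11 against the distance of their start from the start of the segment in Mb, with the median of each 5 Mb bin as a bar. Members within 2-fold of the block median are dark, the 12 above in red and the 9 below in blue, and the bin medians run from -0.78 at the far end of the short arm to between 0.40 and 0.66 in the segment.

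The plot along the chromosome shows bin medians that are below 0 in much of the short arm and above 0 throughout the distal part of the long arm. Shifts of this size were also found elsewhere in the genome. Across the genome, 430 bins of 5 Mb held 10 or more tested protein-coding genes, and the bins of the segment itself are counted among them. Of the 430, 53 had a median at or above that of the lowest bin of the segment and 33 at or above the block median. The bin medians ran from -1.07 to 1.11. Chromosome 22 had a median of 0.58 over 277 tested protein-coding genes, close to the median of the members, and the short arm of chromosome 17 had a median of -0.95 over 215.

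**Figure D3:**
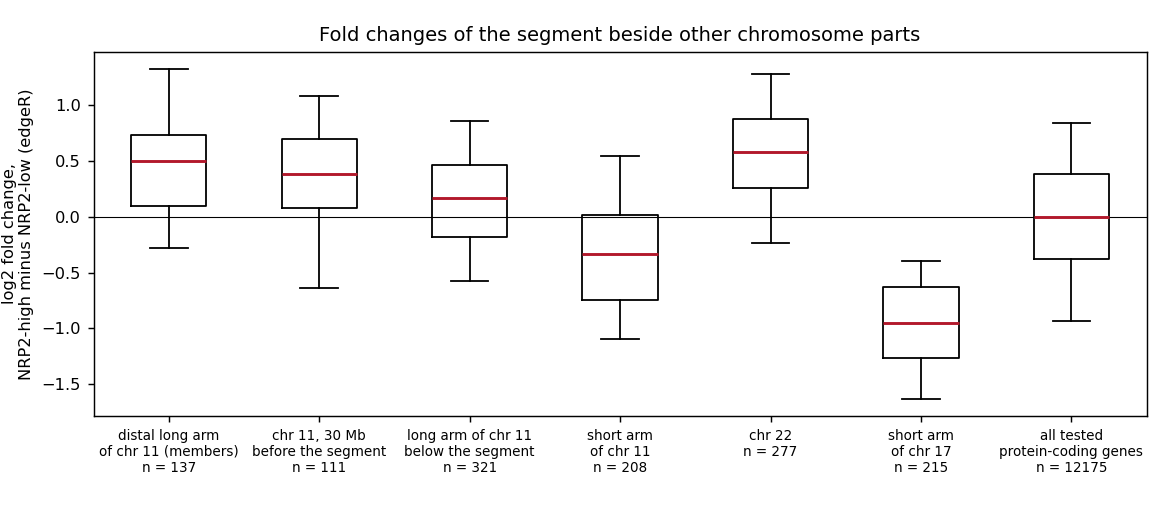
Log2 fold changes (NRP2-high minus NRP2-low, edgeR) of tested protein-coding genes by chromosome part, with the box between the quartiles, the median in red and whiskers from the 10% to the 90% point of the values. The members sit at a median of 0.50 beside 0.58 for chromosome 22, -0.34 for the short arm of chromosome 11 and -0.95 for the short arm of chromosome 17.

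In the plot of chromosome parts, the long arm below the segment includes the stretch beyond position 70000000, which is also drawn on its own.

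At the start limit, the first members were *ARHGAP42* (log2 fold change 1.36), *CEP126*, a centrosomal gene (0.72), and *CFAP300* (-0.54). The last protein-coding genes with 40 counts before the limit were *CCDC82* (0.20), *JRKL* (0.38) and *CNTN5*, a contactin gene with 11 and 5 counts in the NRP2-high and 21 and 29 in the NRP2-low libraries (-1.59). At the count limit, the members with the fewest counts were *ACRV1*, a sperm acrosome gene (49 in all), *CRYAB*, a small heat shock protein gene (63), and *BCO2* (65), and the genes just below it were *CASP1* (33), *C11orf65* (28) and *ANGPTL5* (28).

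The median shift was alike at all levels of expression, while the scatter around it narrowed with level. In the 46 members lowest in mean CPM the median log2 fold change was 0.49 with quartiles of -0.18 and 0.99, in the middle 45 it was 0.50 with 0.07 and 0.69, and in the highest 46 it was 0.54 with 0.36 and 0.69. All tested genes in the same ranges of CPM had medians of -0.08, 0.03 and 0.08. By gene span, the 46 shortest members had a median of 0.34, the middle 45 had 0.46, and the 46 longest, from 63017 to 580102 bases, had 0.70. The other tested protein-coding genes of the genome had medians of -0.13, 0.02 and 0.14 in the same ranges of span, in the same order from short to long. Members on the plus strand had a median of 0.56 and members on the minus strand 0.49.

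**Figure D4:**
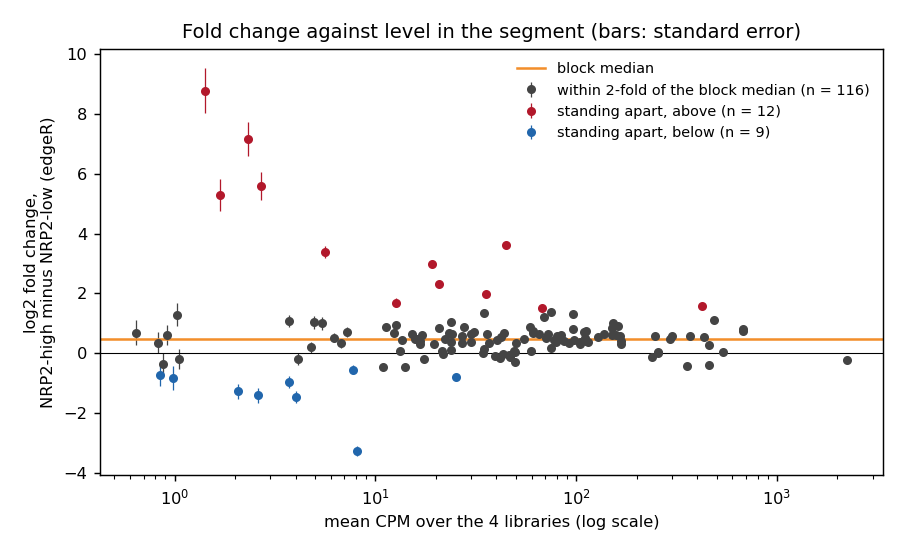
Log2 fold change (NRP2-high minus NRP2-low, edgeR) of the 137 members against their mean CPM over the 4 libraries on a log scale, with standard errors and the block median as a line. The 46 genes with the highest levels gather around the line at 0.50, and 8 of the 12 genes above and 8 of the 9 below are among the 46 with the lowest levels.

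The genes that left the shift were defined as those more than 2-fold away from the block median by the edgeR fold change, with all 4 differences between an NRP2-high and an NRP2-low library on the same side of that median. Above the block stood 12 members (8.76%) and below it 9 (6.57%). Counted in the same way around the median of all tested genes, 7.92% of all tested genes stood above and 8.91% below. The 116 other members had a median of 0.50 with quartiles of 0.20 and 0.68. They include members that were called lower, among them *NNMT*, *THY1*, *HSPA8* and *ETS1*. For 15 of the 21, each immediate neighbour among the members was itself within 2-fold of the block median, and the other 6 were 3 adjacent pairs, *FDX1* and *LAYN*, *CLMP* and *GRAMD1B*, and *SPA17* and *NRGN*. Closest to the limit on its inner side were *SLC37A4* (log2 fold change -0.47), *TMEM136* (-0.46) and *NNMT* (-0.42) below the block and *ARHGAP32* (1.37) above it, and on its outer side *FDX1* (1.52), *CLMP* (1.57) and *CFAP300* (-0.54).

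**Figure D5:**
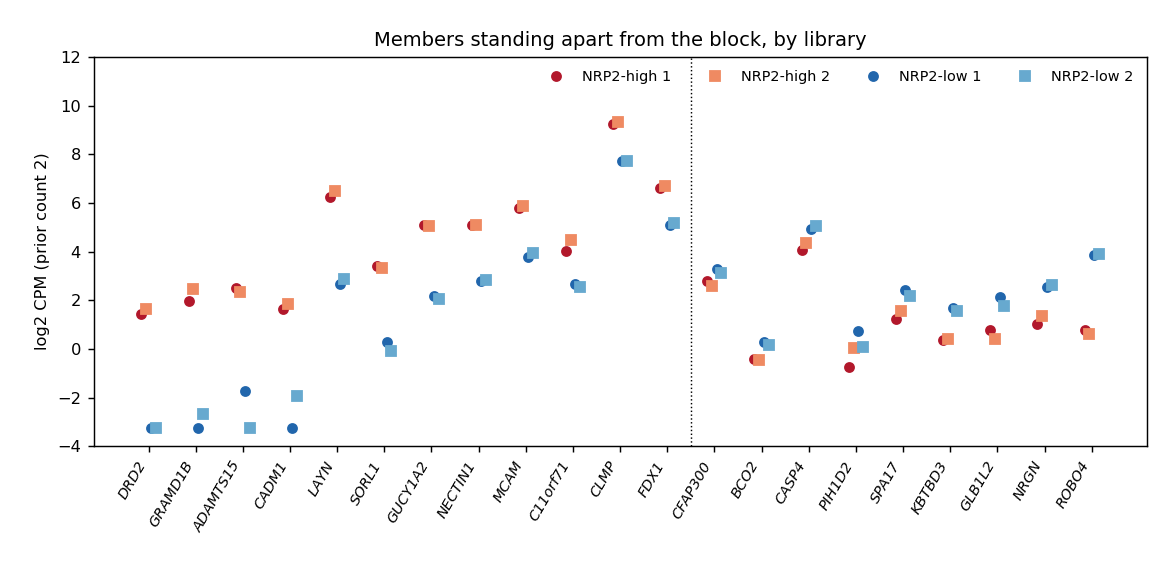
Log2 CPM (prior count 2) of the 21 members that stand apart from the block in each of the 4 libraries, NRP2-high in red tones and NRP2-low in blue tones, with the 12 above the block left of the dotted line and the 9 below it right of the line. By the rule that chose them, the NRP2-high libraries lie above the NRP2-low libraries for each of the 12. They lie below them for each of the 9, for which the rule required all 4 differences to be below the block median.

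The list of immunoglobulin superfamily and other adhesion genes held 10 members, of which 6 were called higher, 2 lower and 2 did not pass, with a median of 1.43 beside 0.50 for all members. Of the 10, 6 stood apart, 5 above the block and 1 below. Over all tested genes 28.9% were called higher and 27.7% lower, and 7.92% stood above and 8.91% below. Of all members, 69.3% were called higher and 10.2% lower, as the segment was chosen for its higher genes. The lists were drawn up with these results known, so nothing is read from the counts of this list or of those below. *LAYN* (chr11:111540280-111561063, plus strand) encodes layilin, a membrane receptor for hyaluronan. It had 1402 and 1740 counts in NRP2-high cells against 126 and 137 in NRP2-low cells, 83.0 ± 9.50 against 6.80 ± 0.676 CPM (SD, n = 2). The 2 groups were far apart, and the log2 fold change was 3.61 with a standard error of 0.11. *NECTIN1* (chr11:119623408-119728553, minus strand), a gene of cell-cell junctions, was counted 634 and 661 times against 136 and 133, a log2 fold change of 2.30 (standard error 0.10). *MCAM* (chr11:119308529-119321521, minus strand) encodes the adhesion molecule CD146 and was counted 1019 and 1134 times against 275 and 284, a log2 fold change of 1.98 (standard error 0.08). Its row overlaps that of *CBL* on the other strand, and whether the counting used strand is not given in the sources used here.

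*CLMP* (chr11:123069865-123195281, minus strand), which encodes a tight junction adhesion protein, was the best counted of those standing apart. It had 11312 and 12475 counts in NRP2-high cells against 4236 and 4002 in NRP2-low cells, 629.5 ± 19.6 against 213 ± 0.0219 CPM (SD, n = 2), with a log2 fold change of 1.57 (standard error 0.05). *CADM1* (chr11:115169218-115504957, minus strand), a homophilic adhesion gene, was near the limit of detection in the NRP2-low cells. It was counted 56 and 68 times against 0 and 3, a ratio of 42.4 with a 95% Clopper-Pearson interval of 14.2 to 208, which covers counting error only. *THY1* encodes a small surface glycoprotein of fibroblasts and neurons and had the highest counts of the list. It was called lower, but lay within 2-fold of the block median. It was counted 7317 and 7799 times against 10383 and 9818, a log2 fold change of -0.38 (standard error 0.05).

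The farthest of all members below the block was *ROBO4* (chr11:124883691-124898500, minus strand), an immunoglobulin superfamily gene that encodes a guidance receptor best known from endothelial cells. It had 30 and 28 counts in NRP2-high cells against 286 and 281 in NRP2-low cells, 1.54 ± 0.133 against 14.6 ± 0.407 CPM (SD, n = 2), with a log2 fold change of -3.25 (standard error 0.16). The groups did not overlap, and *ROBO4* lies between *MSANTD2* (0.46, and 0.37 without NRP2-low 1, where it did not pass) and *CCDC15* (0.87), which were higher. The defining endothelial genes were near 0 in the same libraries, with *PECAM1* at 8 and 14 counts in NRP2-high and 1 and 1 in NRP2-low cells and *VWF* at 0 and 0 against 1 and 1. *JAM3*, a junction gene (17 and 20 counts against 19 and 24), overlapped between the groups.

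The list of kinases, phosphatases and signalling receptors held 11 members, 10 called higher, 0 lower and 1 that did not pass, with a median of 0.64. *DRD2* (chr11:113409615-113475691, minus strand), the gene of the dopamine D2 receptor, had 48 and 59 counts in NRP2-high cells against 0 and 0 in NRP2-low cells. Against a floor of 3 counts over the NRP2-low group it was at least 36.6-fold higher, and its fitted log2 fold change of 8.76, as drawn in the plots, depends on the prior count and is no bound. *GUCY1A2* (chr11:106674012-107018524, minus strand) encodes the alpha-2 subunit of soluble guanylate cyclase, the intracellular receptor for nitric oxide. It was counted 634 and 647 times against 89 and 76, 33.9 ± 0.804 against 4.25 ± 0.303 CPM (SD, n = 2), a log2 fold change of 2.99 with a standard error of 0.11. In contrast, *PAFAH1B2*, which encodes a catalytic subunit of platelet-activating factor acetylhydrolase, had the highest counts of the list, at 4828 and 4908 against 5005 and 4694 (log2 fold change 0.04).

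The list of surface proteases and secretases also holds *SORL1* and *APLP2*, which do not encode proteases. All 5 members of this list were called higher, with a median of 0.87. Of all members 69.3% were called higher, and of all tested genes 28.9%. *ADAMTS15* (chr11:130448974-130476641, plus strand), a secreted metalloproteinase gene, was counted 102 and 97 times against 4 and 0, a ratio of 51.0 with an exact interval of 19.6 to 189 for counting error only. *SORL1* (chr11:121452203-121632240, plus strand) encodes a sorting receptor that carries the amyloid precursor protein away from its proteases. It was counted 191 and 195 times against 22 and 16, 10.2 ± 0.239 against 0.977 ± 0.180 CPM (SD, n = 2), a log2 fold change of 3.37 (standard error 0.20). The other 3 moved by amounts nearer to the block. *BACE1*, the beta-secretase gene, was counted 1359 and 1529 times against 792 and 823 (0.87), *PCSK7*, a proprotein convertase gene, 890 and 994 against 664 and 661 (0.54), and *APLP2*, the gene of a relative of the amyloid precursor protein, 14782 and 17292 against 10229 and 9527 (0.73).

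In the endoplasmic reticulum, glycosylation and trafficking list, 14 of 18 members were called higher, 1 lower and 3 did not pass, with a median of 0.59, and *SORL1* was the 1 that stood apart. *STT3A*, the catalytic subunit gene of an oligosaccharyltransferase, was counted 9068 and 10350 times against 6854 and 6627 (log2 fold change 0.56, standard error 0.05). *ARCN1*, a subunit gene of the COPI vesicle coat, was counted 7836 and 8846 times against 5830 and 5567 (0.58), and *KDELC2*, a glucosyltransferase gene, 3511 and 3716 times against 2529 and 2344 (0.61). These 3 followed the block closely. Their NRP2-high libraries lay above both NRP2-low libraries, as in 75.2% of all members and 39.0% of all tested genes. Outside this list, *GRAMD1B* (chr11:123358428-123627767, plus strand), which encodes a carrier of cholesterol between the plasma membrane and the endoplasmic reticulum, stood above the block. It was counted 70 and 105 times against 0 and 1, a ratio of 180 whose exact interval for counting error only ran from 31.8 to 7130.

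Of 15 members of the list of DNA damage response and replication genes, 11 were called higher, 1 lower and 3 did not pass, with a median of 0.57 and values from -0.28 to 1.03, and none of the 15 stood apart. *ATM* had 3876 and 3842 counts in NRP2-high cells against 1987 and 1901 in NRP2-low cells, 204.5 ± 9.05 against 100.4 ± 0.903 CPM (SD, n = 2), a log2 fold change of 1.03 (standard error 0.05). *CHEK1* was counted 2716 and 3048 times against 2043 and 1953 (0.56, standard error 0.06). Both kinase genes were higher in both NRP2-high libraries, *ATM* by more than the block and *CHEK1* by about as much. *NCAPD3*, a condensin gene, was counted 3331 and 3582 times against 2375 and 2242 (0.62), and *EI24*, a p53-induced gene, 5471 and 5658 times against 3912 and 3750 (0.58). *H2AFX*, the gene of the histone variant that is phosphorylated at DNA breaks, was the 1 called lower, with 931 and 755 counts against 1067 and 1033 (-0.28), and it no longer passed without NRP2-high 2 (-0.10), NRP2-low 1 (-0.30) or NRP2-low 2 (-0.26).

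Of 8 members in the Hippo, apoptosis and caspase list, 7 were called higher and 1 lower, with a median of 0.73. *YAP1* was counted 6438 and 6483 times against 4739 and 4679, 342 ± 11.3 against 243 ± 7.61 CPM (SD, n = 2), and its log2 fold change of 0.49 lay beside the block median of 0.50. The neighbouring *BIRC2* (3876 and 4127 counts against 2266 and 2103) and *BIRC3* (3008 and 3319 against 2115 and 2042) had log2 fold changes of 0.91 and 0.64. *TMEM123*, which encodes a membrane protein linked to a form of cell death, was counted 15423 and 17245 times against 9704 and 9155 (0.83). These 4 genes were all higher, by 0.49 to 0.91, with no overlap between the groups. Both NRP2-high libraries lay above both NRP2-low libraries in 75.2% of all members and 39.0% of all tested genes. *CFAP300*, the member just before *YAP1*, was lower (-0.54). *CASP4* (chr11:104942866-104969366, minus strand), the gene of an inflammatory caspase that senses bacterial lipopolysaccharide, was the 1 member of the list called lower. It was counted 304 and 395 times against 605 and 624, 18.5 ± 2.71 against 31.8 ± 1.97 CPM (SD, n = 2), a log2 fold change of -0.78 (standard error 0.11).

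Mitochondrial genes had the lowest median of the 12 lists with members, at 0.33, with 8 of 14 called higher, 0 lower and 6 that did not pass. *FDX1* (chr11:110429883-110464881, plus strand), the gene of a ferredoxin that passes electrons to mitochondrial cytochromes P450, stood above the block with 1792 and 2016 counts against 685 and 671 (log2 fold change 1.52, standard error 0.07). *BCO2* (chr11:112175467-112224699, plus strand), a carotenoid oxygenase gene, stood below it with 12 and 12 counts against 22 and 19 (-0.73, standard error 0.35), and did not pass the test. Between them lay *ACAT1* of ketone body metabolism (3495 and 4039 counts against 2674 and 2470, 0.59), *AASDHPPT* of protein phosphopantetheinylation (2430 and 2405 against 1940 and 1791, 0.41), *SDHD* of complex II (2302 and 2131 against 1865 and 1650, 0.37) and *DLAT* of the pyruvate dehydrogenase complex (3391 and 3653 against 3035 and 2758, 0.32). All 4 of these had both NRP2-high libraries above both NRP2-low libraries, as had 75.2% of all members and 39.0% of all tested genes.

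Of 12 ubiquitin ligase and deubiquitinase genes, 10 were called higher, 1 lower and 1 did not pass, with a median of 0.54. *CUL5*, a cullin scaffold gene, was counted 2565 and 2777 times against 1683 and 1551 (0.76), and *CBL*, which encodes the ligase of activated receptor tyrosine kinases, 3630 and 3584 times against 2888 and 2676 (0.41). The 1 called lower was *KBTBD3* (chr11:106051098-106077459, minus strand), which encodes a kelch and BTB domain protein. It was counted 22 and 24 times against 61 and 53 (-1.27, standard error 0.25), and its row overlaps *AASDHPPT* on the other strand.

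Transcription and chromatin genes were called higher in 9 of 13 cases and lower in 1, with 3 that did not pass and a median of 0.44. *KMT2A*, a histone H3 methyltransferase gene, was counted 2361 and 2504 times against 1965 and 1898 (0.37), and *ZPR1*, a zinc finger gene, 1875 and 2347 times against 1620 and 1572 (0.44). *BCL9L*, which encodes a coactivator of beta-catenin, was counted 2668 and 2206 times against 1762 and 1747 (0.51), and *ETS1*, the founding gene of the ETS factors, 4258 and 4315 times against 4969 and 4672 (-0.13, standard error 0.05). *ETS1* was the 1 gene of the list called lower, by less than 3 standard errors, and it no longer passed when 1 NRP2-low library was left out (-0.14 for each of the 2). *BCL9L* was at 0.33 without NRP2-high 1. Of 12 genes of RNA helicases, splicing, decay and translation, 10 were called higher, 0 lower and 2 did not pass, with a median of 0.44. Those 2, *RPS25* (10268 and 10488 counts against 10977 and 9654, 0.05) and *DDX6*, an RNA helicase gene (4795 and 4865 against 5132 and 4694, 0.01), had the highest counts of that list and overlapped between the groups. *DDX10*, another helicase gene (1742 and 2161 against 1604 and 1521, 0.35), and *REXO2*, an oligoribonuclease gene (1681 and 1925 against 1311 and 1179, 0.57), did not overlap.

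Among 5 chaperone genes, 2 were called higher, 1 lower and 2 did not pass, with a median of 0.36. *HYOU1*, a chaperone gene of the endoplasmic reticulum, was counted 6554 and 7022 times against 4645 and 4611 (0.59), and *TBCEL*, a tubulin folding cofactor gene, 710 and 660 times against 446 and 460 (0.63). *HSPA8*, which encodes the constitutive cytosolic HSP70, was counted 36076 and 42063 times against 47701 and 45391 (-0.22, standard error 0.06), with the call lost without NRP2-low 1 (-0.23) or NRP2-low 2 (-0.21). By TPM (transcript abundance per 1e6, corrected for gene length), *HSPA8* was also the most abundant member, at 1409 and 1404 TPM in the NRP2-high and 1816 and 1826 TPM in the NRP2-low libraries. It was followed by *RPS25* (1317 and 1149 against 1372 and 1275 TPM), *TMEM123* (629 and 600.4 against 385 and 384 TPM), *NNMT*, nicotinamide N-methyltransferase (377 and 317 against 524 and 509 TPM), and *APLP2* (375 and 375 against 253 and 249.1 TPM). Of these 5, only *TMEM123* and *APLP2* were called higher, though all 5 lay within 2-fold of the block median. *NNMT* was counted 5811 and 5717 times against 8279 and 7613 (log2 fold change -0.42, standard error 0.05). None of the 14 listed ion channel genes and none of the 4 listed apolipoprotein genes of the arm was a member.

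The remaining genes below the block had low counts. *NRGN* (chr11:124739846-124747210, plus strand), the gene of the neuronal calmodulin-binding protein neurogranin, had 35 and 47 counts in NRP2-high cells against 116 and 113 in NRP2-low cells, with a log2 fold change of -1.44 (standard error 0.20). Its neighbour *SPA17* (chr11:124673798-124696686, plus strand), a sperm and cilium gene whose row overlaps *SIAE* on the other strand, was counted 41 and 55 times against 106 and 84 (-0.95, standard error 0.21). *GLB1L2* (chr11:134331874-134378341, plus strand), the last member and a relative of the beta-galactosidase gene, was counted 30 and 24 times against 85 and 62 (-1.40, standard error 0.26). In all 3 both NRP2-high libraries were below both NRP2-low libraries, as in 39.2% of all tested genes. The rule that chose these 3 used the same library differences, so their separation adds no support. *CFAP300* (chr11:102047443-102084560, plus strand), a gene of ciliary dynein assembly, was counted 125 and 113 times against 195 and 160 (-0.54, standard error 0.15), and its call was lost without NRP2-low 1 (-0.44). *PIH1D2* (chr11:112064010-112074171, minus strand), which encodes a PIH1 domain protein, was counted 9 and 18 times against 31 and 18 (-0.82, standard error 0.41), did not pass the test, and overlaps *DLAT* and *NKAPD1* on the other strand. Its lowest NRP2-low library held as many counts as its highest NRP2-high library, and the groups were apart only after scaling, with a log2 fold change of -1.35 without NRP2-high 2 and -0.43 without NRP2-low 1. Above the block, *C11orf71* (chr11:114391443-114400417, minus strand), an open reading frame without an established role, was counted 300 and 436 times against 123 and 109 (1.70, standard error 0.16), and its row overlaps *RBM7* on the other strand.

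Pairs of members that start close together in opposite directions were compared with adjacent members in general. In the 12 pairs whose rows in the count table begin within 1000 bases of each other or overlap by no more than that, the median absolute difference between the log2 fold changes of the 2 genes was 0.29, and over all 136 pairs of adjacent members it was 0.63. *TIMM8B* and *SDHD*, both genes of mitochondrial proteins, were at 0.34 and 0.37, *NPAT* and *ATM* at 0.64 and 1.03, and *NCAPD3* and *VPS26B*, a retromer gene, at 0.62 and 0.71. In 3 of the 12 pairs the difference was over 0.5, namely *C11orf71* (1.70) and *RBM7* (0.39), *PIH1D2* (-0.82) and *NKAPD1* (0.18), and *SRPRA* (0.84) and *FOXRED1* (-0.01). By RefSeq start sites, a choice made after seeing the data, 10 pairs lay within 1000 bases, with a median difference of 0.35. In 4 of these the difference was over 0.5, among them *KBTBD3* (-1.27) and *AASDHPPT* (0.41), and *SIAE*, a sialic acid esterase gene (1.03), and *SPA17* (-0.95), which are not among the 12. *NKAPD1* did not pass without NRP2-high 2 (0.10), NRP2-low 1 (0.12) or NRP2-low 2 (0.23). Reads of such pairs that fall in the overlap cannot be told apart without strand, and these pairs were named after their values were seen.

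The sequence just before the start site was compared because CpG-rich promoters are those of broadly used genes, and because the rule did not use it. RefSeq start sites (GRCh38.p14) were matched by symbol for 105 of the 137 members, and the 250 bases before the start were searched for the letters CG, which read the same on both strands. The CpG observed-to-expected ratio was 0.6 or more in 90 of the 105 (85.7%, median 0.845), in 47.5% of all 35116 RefSeq windows of this length (median 0.558) and in 82.2% of 9598 other tested protein-coding genes (median 0.829). The members were close to the other tested genes in this measure. Among the members that did not stand apart it was 0.6 or more in 82 of 93 (median 0.859), among those above the block in 5 of 5 (median 0.846) and among those below it in 3 of 7 (median 0.534). Start sites were matched for only 5 of the 12 members above and for 7 of the 9 below. Of the 9 below, 8 were among the 46 members with the lowest levels, and windows were not compared at equal level. The windows of a pair from each side are shown, 5′ to 3′ on the strand of the gene, with each CG in capitals, to let windows of different CG density be compared. They are *SORL1* (ENSG00000137642.12; chr11:121452064-121452313, plus strand, 45 CG) and *GUCY1A2* (ENSG00000152402.10; chr11:107018477-107018726, minus strand, 19 CG) from above the block, and *NRGN* (ENSG00000154146.12; chr11:124739692-124739941, plus strand, 23 CG) and *ROBO4* (ENSG00000154133.14; chr11:124897866-124898115, minus strand, 10 CG) from below it.
SORL1: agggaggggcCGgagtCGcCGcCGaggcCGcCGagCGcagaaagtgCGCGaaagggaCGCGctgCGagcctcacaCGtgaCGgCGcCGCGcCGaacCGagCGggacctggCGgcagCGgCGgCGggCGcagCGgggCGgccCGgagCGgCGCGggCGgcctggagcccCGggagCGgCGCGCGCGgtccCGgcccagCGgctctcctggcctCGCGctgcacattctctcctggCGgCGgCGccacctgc
GUCY1A2: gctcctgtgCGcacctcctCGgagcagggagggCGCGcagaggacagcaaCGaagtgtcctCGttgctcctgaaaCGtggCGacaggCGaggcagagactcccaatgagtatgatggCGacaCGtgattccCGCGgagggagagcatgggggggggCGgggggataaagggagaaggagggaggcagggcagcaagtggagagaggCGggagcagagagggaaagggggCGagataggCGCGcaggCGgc
NRGN: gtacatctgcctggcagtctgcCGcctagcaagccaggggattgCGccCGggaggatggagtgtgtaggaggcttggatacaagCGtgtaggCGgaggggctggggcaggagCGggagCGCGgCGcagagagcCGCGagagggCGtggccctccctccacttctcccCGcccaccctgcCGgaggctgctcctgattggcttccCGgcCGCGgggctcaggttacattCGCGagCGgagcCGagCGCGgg
ROBO4: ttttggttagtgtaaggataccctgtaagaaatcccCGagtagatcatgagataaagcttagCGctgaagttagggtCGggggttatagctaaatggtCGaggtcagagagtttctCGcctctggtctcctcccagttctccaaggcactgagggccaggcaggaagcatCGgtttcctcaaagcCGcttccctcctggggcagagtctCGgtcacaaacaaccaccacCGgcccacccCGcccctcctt
The *ROBO4* window has the lowest ratio of the 4 (0.534) and its start lies 635 bases from the end of the *ROBO4* row in the count table. The *SORL1* window has a ratio of 1.12, while *GUCY1A2* from above the block (0.808) and *NRGN* from below it (0.767) lie close together. A count of CG letters describes the sequence and says nothing of its methylation, which was not measured.

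Of 166 rows of the segment that are not protein-coding, 26 were tested, with a median log2 fold change of 0.20, 3 called higher, 1 lower and 15 above 0. The 2882 tested rows of this kind elsewhere in the genome had a median of -0.03, with 13.8% called higher and 15.2% lower. Among the 26 tested rows of the segment, 11 pseudogenes had a median of -0.08 and the 15 others 0.21. Their counts were low, with a median of 89 summed over the 4 libraries against 3018 for the members, and *MIR100HG*, the host gene of a microRNA cluster, was counted 536 and 622 times against 522 and 447 (0.29).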

How the data were processed

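RNA of sorted BT549 cells was measured in 2 NRP2-high and 2 NRP2-low libraries, grouped by their labels. The authors prepared stranded libraries of polyadenylated RNA, aligned paired reads to hg38 with STAR, and counted exon fragments per gene with featureCounts. The deposited counts are raw, and the deposited TPM and FPKM values were scaled from them by the authors. The annotation release is not given in the sources used here. The paper and the labels name different RNA extraction kits.

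Counts were tested with edgeR 4.0.16 in R 4.3.3 over all 4 libraries (default filterByExpr, TMM, quasi-likelihood F test without covariate, Benjamini-Hochberg adjustment over 15083 tested genes, threshold 0.05). CPM are counts per effective library size, with TMM factors of 0.943 to 1.04. Standard errors were derived from the fold change and its F statistic. The biological coefficient of variation common to all genes was 0.0502. Ratios with few counts carry 95% Clopper-Pearson intervals, which cover counting error only. Alternatives used DESeq2 1.42.0, limma 3.58.1, other scalings, filters, limits and left-out libraries.

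The members, the role lists and the rule for named genes were chosen with earlier results of these data known. Named were the members farthest from the block (up to 12 on each side), up to 4 members a role list by mean CPM and any that stood apart, the 5 most abundant by TPM, and genes at the limits of the rule. Names that the rule leaves out and 1 role list are not reported here.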

Additional observations from a re-analysis of the deposited data

How the results depend on the processing

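The median of the members (0.50) was 0.39 with library totals in place of TMM, 0.31 and 0.34 with limma on log2(TPM + 1) and log2(TPM + 0.1), 0.29 on log2(FPKM + 1), 0.47 for starts 10 Mb further along and 0.48 with all gene types, and 0.48 to 0.51 without 1 library. Scaling moved the median of all genes as well, to -0.12, -0.14 and -0.16 with library totals and both TPM settings, and relative to that median the members were 0.50 higher in the main analysis and 0.36 (FPKM) to 0.52 higher in the alternatives. The difference from the rest of chromosome 11 (0.51) was 0.53 with DESeq2, 0.53 without a filter, 0.45 on log2(TPM + 1), 0.38 on log2(FPKM + 1), 0.49 and 0.45 for starts 5 and 10 Mb further along, 0.49 with all gene types and 0.33 against the long arm below the segment, and 0.48 to 0.56 without 1 library.

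The count of members called higher (95) was 63 and 62 with both TPM settings and 33 in a test against a 1.5-fold change, and 87 to 96 without 1 library. The count of members called lower (14) was 9 with DESeq2 and 4 in the test against 1.5-fold, and 9 to 17 without 1 library, with the 9 obtained without NRP2-low 1. The 12 genes above the block were 6 on log2(FPKM + 1) and 7 at a 4-fold limit, and 11 to 12 without 1 library. The 9 below were 2 on log2(FPKM + 1), 23 at a 1.5-fold limit and 1 at a 4-fold limit, and 8 to 11 without 1 library. FPKM and TPM with a pseudocount of 1 compress the fold changes of low genes by construction, and the cause of the other changes was not tested.

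Replicate numbers did not pair the libraries (correlation of deviations -0.01). With the replicate number as a block, the median was 0.50, its difference from the rest of chromosome 11 was 0.51, 95 members were called higher and 14 lower, and 12 stood above and 9 below the block.

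Of 1196 values of 80 members (those of the rule and others the text names) under alternatives, 1129 kept their direction and side of the threshold, 63 lost a call, 4 gained it, among them *PIH1D2* without NRP2-high 2 and *TRAPPC4* without NRP2-high 1 (-0.21), and 0 reversed (a change of sign between values that did not pass was not counted). On log2(FPKM + 1), *DRD2* was at 0.73, *GRAMD1B* at 0.37, *CADM1* at 0.35 and *ADAMTS15* at 0.90. Without 1 library, fold changes that rest on few NRP2-low counts rose, to 9.63 for *ADAMTS15* without NRP2-low 1, and to 8.98 for *CADM1* and 9.48 for *GRAMD1B* without NRP2-low 2. *PIH1D2* was at -1.35 without NRP2-high 2, -0.44 without NRP2-high 1 and -0.43 without NRP2-low 1, and *BCL9L* at 0.33 without NRP2-high 1. Without 1 library, calls were lost for *CFAP300* (NRP2-low 1, -0.44), and for *ETS1* (-0.14 and -0.14) and *HSPA8* (-0.23 and -0.21) without NRP2-low 1 or NRP2-low 2. Calls were also lost for *H2AFX* and *NKAPD1* without NRP2-high 2 or either NRP2-low library, *MSANTD2* (0.37) and *TMEM136* (-0.41) without NRP2-low 1, and *SLC37A4* (-0.42) without NRP2-low 2. Groups of 2 libraries, unstated culture of origin and low counts in many genes that left the block limit these values.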

Other observations

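Protein-coding genes of the segment below 40 counts also included genes seen in 1 population only or nearly so. *ROBO3*, a guidance receptor gene next to *ROBO4*, had 9 and 9 counts in NRP2-high cells against 0 and 0 in NRP2-low cells, *TP53AIP1*, a p53-induced apoptosis gene, 10 and 12 against 2 and 0, and *C11orf88* 11 and 12 against 3 and 0. In the opposite direction, *HEPACAM*, an adhesion gene of glia, was counted 0 and 0 times against 3 and 9, and *TRIM29*, a gene of basal epithelium, 0 and 1 times against 5 and 8. These counts are too low for a fold change, were picked out after their values were seen, and were not tested.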
